A study of Mus musculus with 4 samples.

Results

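The comparison described here set cells sorted as marginal zone macrophages from BXD2-Ifnar-/- mice against those from BXD2 mice that kept the receptor, all given PBS. It used every probe of the arrays that carries 1 gene symbol, 34885 of 45281 probes and 19057 genes, on 3 of the 4 arrays of the series. BXD2 mice, a recombinant inbred line, come to have lupus-like autoimmunity as they age. The knockout mice are BXD2 mice without the type I interferon receptor. The labels give neither the deleted part of the gene nor the background of the allele. There were 2 control arrays (BXD2, PBS) and 1 knockout array (BXD2-Ifnar-/-, PBS). Each held the pooled cells of 2 mice aged 2.5 months and killed 10 hours after the injection, 6 mice in all if no mouse served more than 1 array. All cells had been sorted from the spleen as SIGN-R1-bearing cells with low CD11b and neither F4/80 nor I-Ab. The fourth array, of BXD2 mice given sLTβR-Fc, entered the normalisation, the floor, the choice of probes and the background filter. It added nothing to limma's residual spread and was no part of the comparison. In the submitters' account these macrophages are defective in BXD2 mice and normalised in the knockout mice. On all 3 arrays the defining markers SIGN-R1 (Cd209b) and Marco were dim while genes of granulocytes, B cells and T cells were well above background, so the markers do not bear out the label, as given with values further on.

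Type I interferons signal through a receptor of 2 chains, Ifnar1 and Ifnar2, whose kinases Jak1 and Tyk2 activate transcription factors of the STAT family. Stat2 and Irf9 take part in a complex that binds interferon-stimulated response elements in the promoters of interferon-stimulated genes, many of which act against viruses. Marginal zone macrophages line the border between the white and the red pulp of the spleen, where they take up particles and dying cells from the blood, and they are known by the lectin SIGN-R1 and the scavenger receptor MARCO.

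Values below are intensities after quantile normalisation, given as the 2 control arrays in order against the knockout array. Differences are on the log2 scale, the knockout array minus the mean of the control arrays unless said otherwise. Of the 19057 genes, 14689 were above the background of at least 1 of the 4 arrays and were compared. The knockout group has a single array. A gene therefore counts as 2-fold higher or lower only if it stood a log2 of at least 1 from each control array, which is a rule of size and no test. Between 52.8% and 53.7% of probes were above background on the 3 arrays, and before scaling their upper quartiles were 188 and 179 on the controls and 156 on the knockout array. Across genes, taken as a description, r was 0.993 between the controls, 0.969 between control 1 and the knockout array and 0.977 between control 2 and the knockout array. Xist read 10518 and 10566 on the controls against 6179 on the knockout array, and the Y-linked genes Kdm5d, Uty and Eif2s3y lay between 111 and 122 on all 3, against a floor of 111.

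In all, 83 genes (0.565% of those compared) were 2-fold higher and 138 (0.939%) 2-fold lower on the knockout array than on both controls. By direction alone, 41.7% of all genes lay above both controls and 30.2% below both. The counts of every list below are to be read against these shares. Between the controls themselves 31 genes stood 2-fold apart, against 425 between control 1 and the knockout array and 277 between control 2 and the knockout array. Against control 1 alone 163 genes were 2-fold higher and 262 lower, and against control 2 alone 113 and 164. The balance depended on the scaling, with 30 genes higher and 298 lower when nothing was scaled and the values were taken as deposited, the all-gene median then being -0.098. Close to the threshold, Pld4 and Fosl2 were the last genes counted as higher and Spon2 and Rad54l as lower, while Klrg1, Syk, Ermap and Actn1 stood just outside it, within 0.01 of a log2 of 1.

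A fit in limma over the 10778 genes above background on all 4 arrays called 968 genes higher (8.98%) and 1014 lower (9.41%) at a Benjamini-Hochberg adjusted p under 0.05. The fit takes its residual spread from the control pair alone, which the labels give as separate samples without saying that they came from separate mice. A p-value here therefore reflects only how far these 2 arrays differ, and that difference may be technical. limma also pools this spread over genes of like intensity, giving the pooled value 227 degrees of freedom against 1 from the gene itself. The SE printed for a gene thus says little about its own control gap. Cela2a, with controls 1.56 apart, and Cyp4f16, with controls 0.087 apart, both have an SE of 0.22. limma called 0 genes when all 14689 genes were fitted, with 2872 at an unadjusted p under 0.05 and a lowest adjusted p of 0.213, and 0 genes when the arrays were scaled to a common 75th percentile, with 2929 at an unadjusted p under 0.05. Single genes are therefore described by their values on the 3 arrays, and limma's calls are given as counts beside them.

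**Figure D1:**
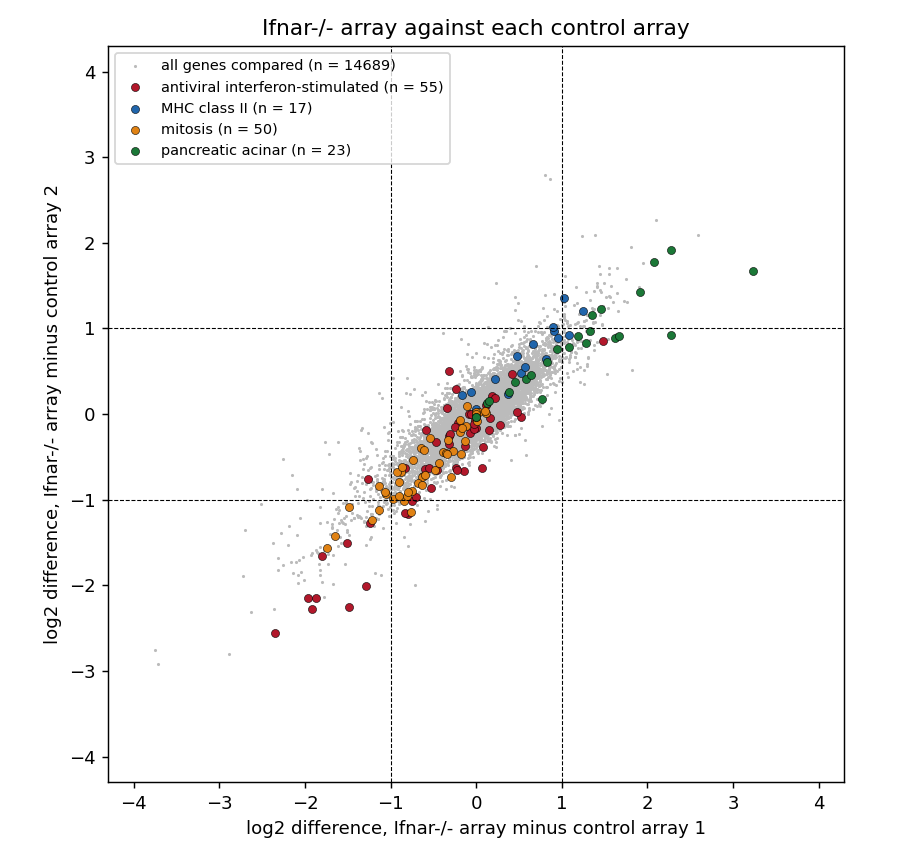
Each point is a gene, placed by its log2 difference on the knockout (Ifnar-/-) array from control array 1 (horizontal) and from control array 2 (vertical), with 4 gene lists coloured and dashed lines at a log2 of 1. Genes in the upper right and lower left corners passed the rule of size, 83 and 138 of 14689.

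Antiviral interferon-stimulated genes were mostly lower on the knockout array. Of 55 members compared, 35 were lower than either control array and 6 higher than either, where 30.2% and 41.7% of all genes did. There were 9 members 2-fold lower and none 2-fold higher. Their median difference was -0.27 (-0.24 from control 1 and -0.26 from control 2), against a median of 0.00049 over all genes compared. The median between the controls was 0.083, control 2 being higher. limma called 21 of the 47 members fitted lower and 1 higher. With the floor doubled the median was -0.071.

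Ifi27, a small mitochondrial protein gene that serves as a marker of interferon exposure, read 5719 and 6621 on the controls against 1123 on the knockout array. That is 5.48-fold lower than the control mean (-2.45 ± 0.18, SE from limma), and its further probe lay at -2.28. Its relative Ifi27l2a read 2432 and 3119 on the controls against 646 on the knockout array, 4.26-fold lower. The controls differed by 0.21 and 0.36 on these genes, and the knockout array lay far below both. Cmpk2, a mitochondrial nucleotide kinase next to the antiviral enzyme gene Rsad2, read 681 and 617 against 196. Rsad2 itself, which encodes viperin, read 305 and 215 against 127 and so missed the 2-fold rule against control 2 (-0.76).

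The double-stranded RNA sensor kinase gene Eif2ak2, which encodes PKR, had nearly equal values on the controls, 723 and 738, and read 305 on the knockout array (-1.26 ± 0.21). Rnf213, a giant ubiquitin ligase gene, read 542 and 540.5 against 190.4. Ifit3, whose product binds with its relatives to foreign RNA, read 346 and 567 against 141. All 3 were lower than each control, while the controls differed on Ifit3 by 0.71 and on the others by at most 0.03. These 3, Cmpk2 and Ifi27l2a have no further probe, whereas the 3 genes that follow have some. Oasl2, of the oligoadenylate synthetase family, read 517 and 591 against 133 (-2.06) and lay at -0.13 on further probes. Oas1g, a member of the same family, read 410.1 and 496 against 112 (-2.01) and lay at -0.0066 on its further probe. Usp18, a protease that removes ISG15 and restrains the receptor, read 352 and 598 against 126 (-1.87) and lay at -0.0054 on its further probe. These further probes lay near no difference, and which probe reads the transcripts of these cells was not tested.

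Several members lay below both controls by less than 2-fold. Lgals3bp, a secreted glycoprotein gene, read 754 and 944 against 423. Ifit2, a relative of Ifit3, read 311 and 403 against 179 with a further probe at -0.85. Trim30a, a tripartite motif gene, read 1997 and 2410.5 against 1229. Oasl1 read 188 and 225 against 111 and its further probe lay at -0.59. Oas2 was not well above background on the knockout array and so was at least 1.62-fold lower than on the controls. Isg15, a ubiquitin-like modifier, was dim at 169 and 152 against 122.

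Other members did not follow. Bst2, which encodes the virion tether tetherin, read 281 and 413 against 403, within the control values. Samhd1, which depletes nucleotides, read 3366 and 3746 against 3315, just under control 1. Ifitm1, of the membrane proteins that block virus entry, read 828 and 1278 against 2305 (1.16, further probes 0.77) and was the member that limma called higher. Its relative Ifitm2 was above both controls by less, at 249 and 241 against 334, and Ifitm3 lay between them, at 706 and 528 against 557. The Schlafen and Ifi200 families, kept as a separate list, had a median of -0.020, from -0.42 to 0 over the alternatives. Of 12 compared, 2 lay above both controls and 5 below both, against 41.7% and 30.2% of all genes. None of the 12 was 2-fold apart, and 3 were at the floor on all 3 arrays. Cell type marker lists differed on the same array: neutrophil secondary granule genes had a median of -0.40 (-0.10 with the floor doubled) and B cell genes of 0.58, as given in full further on. Their part in the lower interferon-stimulated genes was not tested.

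**Figure D2:**
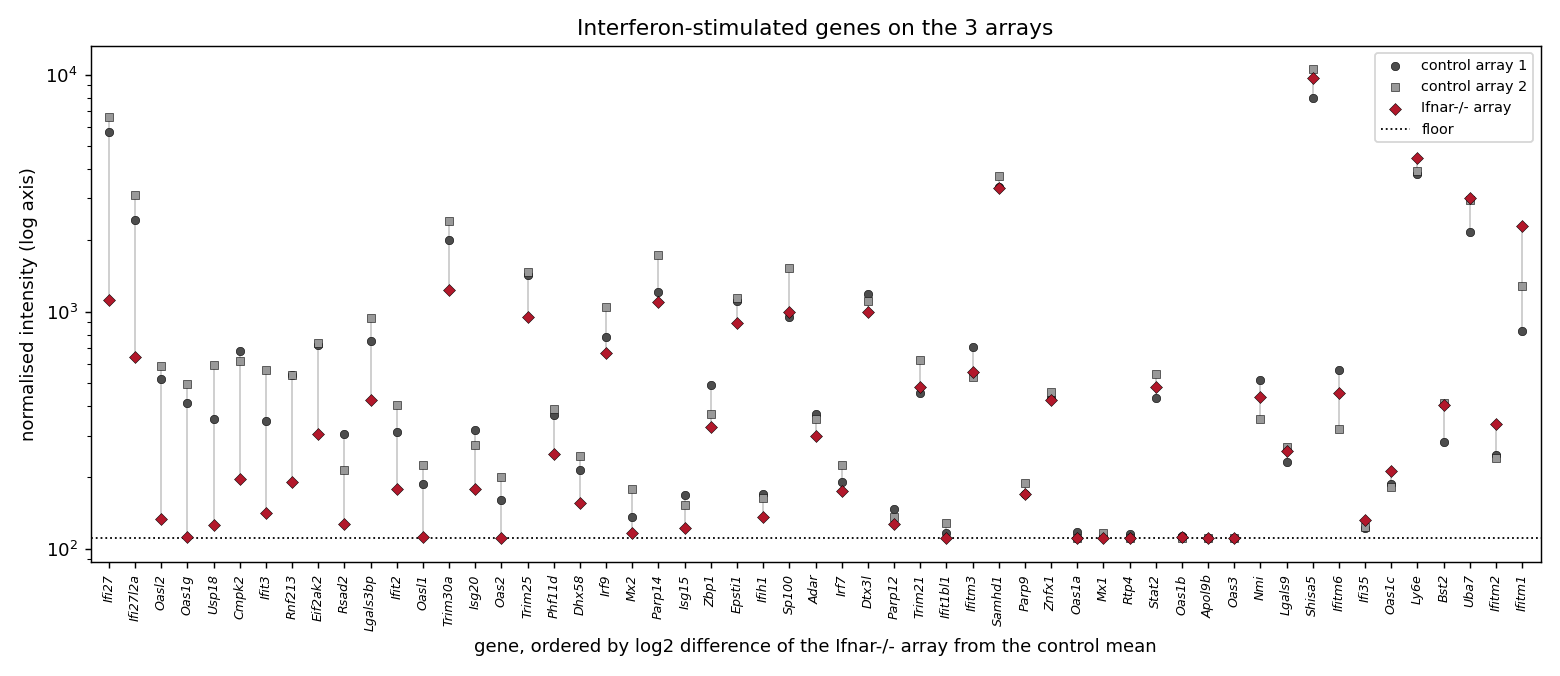
Normalised intensity (log axis) of the 55 antiviral interferon-stimulated genes on control array 1 (dark circles), control array 2 (grey squares) and the knockout array (red diamonds), ordered by log2 difference, with the floor of 111 dotted. From Ifi27 to Eif2ak2 the knockout array lies clear below both controls, and at the right end Ifitm1 lies above both; levels of different genes are not comparable.

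Interferon-inducible GTPases, which attack the membranes of vacuoles that hold pathogens and respond to type I and type II interferon, were also mostly lower. Of 15 compared, 11 lay below both controls and 3 above both, against 30.2% and 41.7% of all genes. The median of the list was -0.22 and ranged from -0.52 to -0.12 over the alternatives. Gbp5, a guanylate-binding protein gene, read 803 and 896 on the controls against 229.6 on the knockout array (-1.89 ± 0.21), with a further probe at -0.48, and was the only member 2-fold lower. Igtp, an immunity-related GTPase gene, read 842 and 1273 against 470.2. Irgm2, a regulator of these GTPases, read 609 and 953 against 443. On both the controls stood apart, by 0.60 and 0.64. Irgm1, another such regulator, read 15874 and 17260 against 15810, close to control 1. Gbp2b, at 290.3 and 307 against 409, was above both controls. limma called 4 of 13 fitted members lower and 0 higher.

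To set the expression values beside promoter sequence, RefSeq promoter windows of 300 bases (250 before and 50 after each gene's start, GRCm38.p6) were searched on both strands for the response element core, GAAA and again GAAA with any 2 bases between them. It was present in 1131 of all 32851 windows (3.443%) and in 455 of the 11794 compared genes with a window (3.858%). Among antiviral interferon-stimulated genes 3 of the 6 that were 2-fold lower and had a window held it (50%), as did 16 of the 36 others (44.4%). Among the GTPases 9 of 10 held it, Gbp5 among them. Over all genes 2-fold lower the share was 5 of 114 (4.386%) and over those 2-fold higher 4 of 65 (6.154%). The 4 windows below are those of the 2-fold lower interferon genes that hold the motif, which is in capitals. They are written 5′ to 3′ on the gene's strand, where a match on the opposite strand starts and ends with TTTC.
Oas1g: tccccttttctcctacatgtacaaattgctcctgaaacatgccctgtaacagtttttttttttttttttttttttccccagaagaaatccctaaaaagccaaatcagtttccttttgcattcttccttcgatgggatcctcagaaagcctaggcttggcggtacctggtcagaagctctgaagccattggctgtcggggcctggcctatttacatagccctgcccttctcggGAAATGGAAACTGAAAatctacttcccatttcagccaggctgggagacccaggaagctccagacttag
Ifit3: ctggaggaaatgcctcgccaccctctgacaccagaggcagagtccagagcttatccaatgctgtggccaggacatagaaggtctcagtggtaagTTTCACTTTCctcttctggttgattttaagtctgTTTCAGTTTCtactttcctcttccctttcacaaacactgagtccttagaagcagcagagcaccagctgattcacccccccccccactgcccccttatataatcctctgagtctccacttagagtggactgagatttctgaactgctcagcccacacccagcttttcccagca
Eif2ak2: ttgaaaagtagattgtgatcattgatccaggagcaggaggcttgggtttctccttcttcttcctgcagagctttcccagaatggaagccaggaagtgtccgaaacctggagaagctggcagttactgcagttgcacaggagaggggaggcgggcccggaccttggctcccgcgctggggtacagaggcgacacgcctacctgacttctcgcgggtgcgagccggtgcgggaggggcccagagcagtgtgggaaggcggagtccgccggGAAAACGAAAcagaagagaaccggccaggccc
Gbp5: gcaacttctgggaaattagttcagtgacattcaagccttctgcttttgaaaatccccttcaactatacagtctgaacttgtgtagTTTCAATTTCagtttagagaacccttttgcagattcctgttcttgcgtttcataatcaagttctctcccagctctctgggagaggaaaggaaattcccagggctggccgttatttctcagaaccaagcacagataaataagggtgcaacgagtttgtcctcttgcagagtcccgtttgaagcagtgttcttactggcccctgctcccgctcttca
The Oas1g window is chr5:120887564-120887863 on the minus strand, and its 2 sites, from bases 233 and 239, overlap. That of Ifit3 is chr19:34583279-34583578 on the plus strand, with sites from bases 95 and 129. That of Eif2ak2 is chr17:78882523-78882822 on the minus strand, with a site from base 269, after the gene's start. That of Gbp5 is chr3:142496684-142496983 on the plus strand, with a site from base 86. Cmpk2, Oasl2 and Rnf213 hold no match in their windows. A match is a description of these letters and not a measured binding site.

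Genes of the receptor and its signalling were measured next. Ifnar1 read 157 and 149 on the controls against 191 on the knockout array, a dim probe. Where this probe lies relative to the deleted part is not known here, so it is no check of the genotype. Ifnar2, its partner chain, read 309 and 351 against 248, with further probes at 0.11. Of the 25 genes of receptors, kinases, STAT factors and their inhibitors, 12 lay above both controls and 11 below both. Over all genes compared these shares were 41.7% and 30.2%. The median of the 25 was 0.036, which turned to -0.24 in the values as deposited, and Usp18 was the only one 2-fold apart.

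Of the kinases bound to the receptor, Jak1 read 2272 and 2302 against 2706 on its brightest probe and lay at -0.70 on further ones. Tyk2 read 1551 and 1616 against 2020.4, above both controls. Jak2, of the type II receptor, read 479 and 742 against 815, and the controls stood 0.63 apart. Jak3, of the common gamma chain receptors, read 231 and 234 against 205. Stat2, of the interferon-stimulated gene factor, read 433 and 546 against 482 and lay between the controls. Irf9, its partner, read 781 and 1047 against 668 and lay below both. Stat3, which cytokines of the interleukin 6 family activate, read 4549 and 4065 against 5024. Stat4, of the interleukin 12 pathway, read 515 and 691 against 676. Stat5a and Stat5b, of many growth factor receptors, lay at 0.036 and -0.24. Stat6, of the interleukin 4 pathway, read 292 and 228 against 351. None of these STAT genes was 2-fold apart from both controls.

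The chains of the type II interferon receptor went in opposite directions. Ifngr1, which binds the ligand, read 365 and 389 on the controls against 709 on the knockout array (0.91), while Ifngr2, the signalling chain, read 11801 and 10056 against 6416 (-0.76), with further probes at -1.24. limma called the first higher and the second lower. Il10rb, a chain shared by the interleukin 10 and type III interferon receptors, read 1353 and 1368 against 1058. Ifnlr1, its type III partner, read 151 and 149 against 145. Ifngr2 and Il10rb adjoin Ifnar1 among the compared genes of chromosome 16, and Ifnar2 lies 2 places from it, as taken up further on. Of the feedback inhibitors Socs1, Socs2, Socs3 and Cish, the Socs genes lay at 0.063, -0.21 and 0.073. Cish, at 458 and 554 against 790.5, was the farthest of these from the controls, but Usp18, given above, lay farther. The phosphatase genes Ptpn6 and Ptpn11 lay at 0.55 and -0.64, and Pias1, a SUMO ligase, at -0.16. Further probes of Ptpn11 lay at 0.053.

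Interferon regulatory factors, which induce interferon or specify immune cells, had a median of 0.65 (0.32 in the values as deposited). Of 8 compared 5 were above both controls and 2 below both, against 41.7% and 30.2% of all genes. Irf5, which drives inflammatory genes in macrophages, read 1062 and 1109 on the controls against 2008 on the knockout array. Irf2, an antagonist of Irf1, read 1888 and 1832 against 3388. Irf4, of plasma cells and dendritic cells, read 540.3 and 571 against 994. Irf8, needed for dendritic cells, read 4833 and 4666 against 7354. Irf3, which induces interferon, read 2137 and 2631 against 3769 with further probes at 0.70. limma called these 5 higher. Irf7, which amplifies interferon production, and Irf9 lay below both (-0.25 and -0.44) and Irf1 between them (6662 and 7833 against 6749). The ligands were at or near the floor: of 12 interferon genes compared all but Ifng (353 and 366 against 490.3) lay under 207 on the 3 arrays.

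Sensors of nucleic acids and of microbes, which induce interferon, were as a list near the shares over all genes. Of 24 compared 10 lay above both controls and 9 below both, against 41.7% and 30.2% of all genes. None of the 24 was 2-fold apart, and their median was 0.0089. Cytosolic sensors that interferon itself induces were among those below. Dhx58, a helicase of the RIG-I family, read 215 and 245 against 156, with further probes at -0.43. Cgas, the DNA sensor, read 677 and 779 against 504 on its brightest probe and lay at 0.054 on the further one. Ifih1, which encodes the RNA sensor MDA5, was dim at 171 and 163 against 136. Tlr7, an endosomal RNA sensor linked to lupus, read 340.1 and 422 against 336, next to control 1. Above both controls lay Unc93b1, the chaperone of endosomal Toll-like receptors, at 816 and 917 against 1625, with its further probe at 0.11. Nod1, a sensor of bacterial walls, read 1484 and 1779 against 2825, and Tlr2 read 201 and 211 against 329.5.

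Genes that flank a knockout can keep donor DNA when the allele is crossed into another strain, so those around Ifnar1 on chromosome 16 were taken in their RefSeq order. Among the 10 genes nearest to Ifnar1, 5 on each side, the median size of the difference regardless of sign was 0.39, against 0.14 for the 20 nearest, 0.11 for the 50 nearest, 0.11 for chromosome 16 and 0.11 for all genes. None of the 50 nearest passed the 2-fold rule. Gart, a purine synthesis enzyme gene 4 places from Ifnar1, came closest, at 2414 and 2474 against 1240.2 (-0.98, its further probe -0.34). The receptor genes Ifngr2 and Il10rb, each 1 place from Ifnar1, lay at -0.76 and -0.36, with further probes at -1.24 and -0.23. Ifnar2, 2 places away, lay at -0.41, with further probes at 0.11. Tmem50b, a membrane protein gene between Ifngr2 and Dnajc28, at 300.4 and 365 against 479, was above both controls, with its further probe at 0.52. Cryzl1, 7 places from Ifnar1, was the highest of the 50, at 281 and 274 against 486. Whether the alleles near Ifnar1 differ between the mice was not tested.

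**Figure D3:**
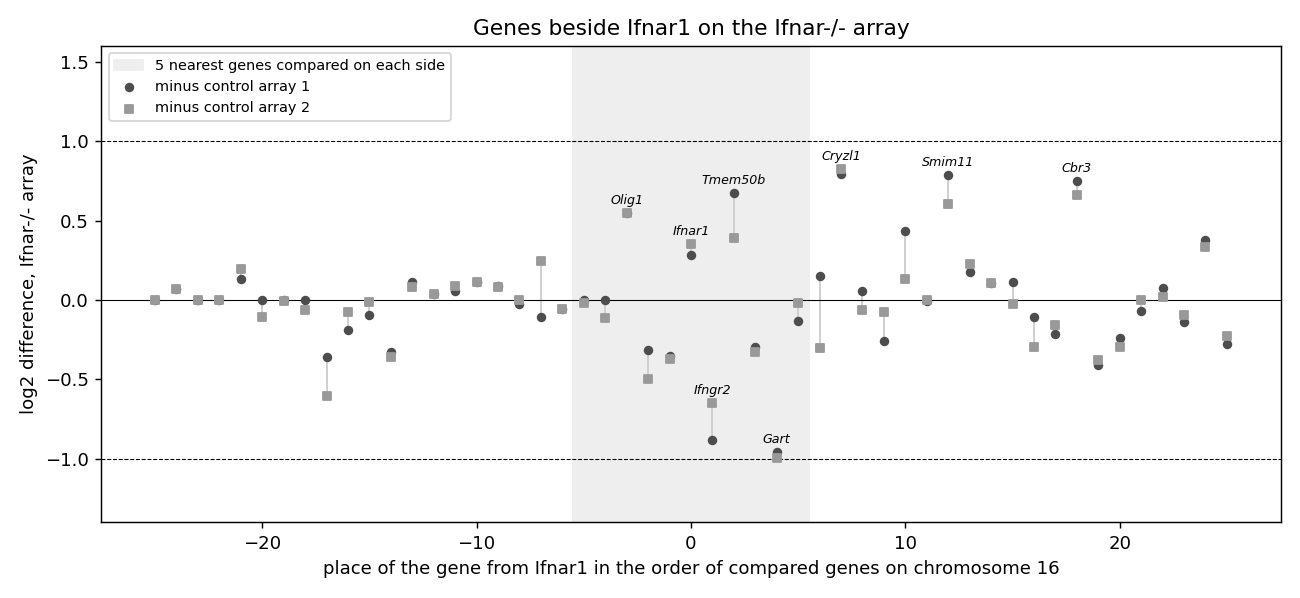
Log2 difference of the knockout array from control array 1 (circles) and control array 2 (squares) for Ifnar1 and the 25 compared genes on each side, by place in their order on chromosome 16, with the 5 nearest on each side shaded. Among the shaded genes differences go both ways, from Gart close to -1 to Olig1 at 0.55. Farther out most genes lie near 0, some of them at the floor, but Cryzl1 lies at 0.81, Cbr3 at 0.71 and Smim11 at 0.70.

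The genes of the sort gate were read against the gate. Cd209b, which encodes SIGN-R1, was dim on every array at 127 and 130.1 against 152, with further probes at 0.38. Itgam, which encodes CD11b, stayed near the floor at 113 and 111 against 118. Adgre1, which encodes F4/80, read 629 and 306 against 1017. H2-Aa, the alpha chain of I-A, read 14458 and 12723 against 16850. H2-Ab1, its beta chain, read 8662 and 8305 against 16289. I-A and F4/80 transcripts were thus far above background in cells sorted as lacking those proteins, on the controls too. Genes of other cells were as well, with the granulocyte gene Mpo at 25201 and 19311 against 12439, the B cell gene Cd79b at 9386 and 9488 against 13760 and the T cell gene Cd3d at 2178 and 2781 against 1247.

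Of 21 genes of marginal zone macrophages compared, 11 lay above both controls and 7 below both, against 41.7% and 30.2% of all genes. The median of the list was 0.10, which turned to -0.0071 in the values as deposited. Relatives of SIGN-R1 stood out. Cd209d, which encodes SIGN-R3, read 216 and 306 on the controls against 1304 on the knockout array (2.34, the controls standing 0.50 apart). Cd209e, which encodes SIGN-R4, read 118 and 121 against 325 (1.44). Cd209a, a dendritic cell lectin, was dim at 117 and 111 against 178. The genes are close relatives, and whether their probes tell them apart was not tested. Lgals3, a galectin of macrophages and other cells, read 1724 and 1679.9 against 4843 (2.85-fold).

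Marco, the scavenger receptor that defines these macrophages, read 252 and 162 on the controls against 181 on the knockout array, between the controls. Timd4, a receptor for phosphatidylserine on dying cells, read 178 and 159 against 219.9. The complement genes C1qa and C1qc, which help to clear dying cells, were below both controls, with C1qa at 168 and 148 against 119. Of 23 genes of apoptotic cell clearance, 11 lay above both controls and 8 below both, against 41.7% and 30.2% of all genes. Axl, a receptor tyrosine kinase of clearance, read 1016 and 436 against 238. Stab2, a scavenger receptor, read 402 and 237 against 551. On both the controls differed widely (-1.22 and -0.77).

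The knockout array was higher than the controls on genes of MHC class II presentation. Of 17 compared, 14 lay above both controls and none below both, 2 were 2-fold higher, and limma called 10 of 16 fitted members higher. Over all genes compared 41.7% lay above both controls, 30.2% below both, and 0.565% were 2-fold higher. The median difference of the class II list was 0.58 (0.57 and 0.64 from controls 1 and 2), and the controls differed by -0.059. In the values as deposited the median was 0.26.

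The 3 highest members act in antigen processing and peptide exchange. Ifi30, a lysosomal thiol reductase that unfolds antigen, read 399 and 413 on the controls against 947 on the knockout array (2.33-fold, further probe 1.05). H2-DMb1, a chain of the peptide exchange factor, read 734 and 582 against 1491. H2-DMa, its partner chain, read 1193 and 1336 against 2534 with its further probe at 1.01. H2-Ob, a chain of the factor's inhibitor, read 974 and 1018 against 1886. H2-Oa, the other chain of the inhibitor, read 1216 and 1377 against 2148. The exchange factor and its inhibitor were therefore both higher. Among the surface chains H2-Eb1, of I-E, read 4694 and 4316 against 8710.4. The invariant chain Cd74 read 4892 and 4958 against 7283 with further probes at 0.74. Ciita, the master regulator of these genes, read 830 and 744 against 1316 on its brightest probe and lay at 0.057 on the further one. Ctss, a protease that degrades the invariant chain, lay between the controls (4908 and 3751 against 4382).

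MHC class I genes did not follow. Of 24 compared, 11 lay above both controls and 5 below both, against 41.7% and 30.2% of all genes. The median of the list was 0.017, which turned to -0.22 as deposited. H2-K1, a classical heavy chain, read 7765 and 8996 against 10197. H2-D1, another, read 4202 and 4017 against 4394. Their partner B2m read 6582 and 9354 against 6204. Their regulator Nlrc5 was below both controls at 752 and 817 against 526. Pdia3, a disulphide isomerase of the loading complex, was the only one 2-fold lower, at 2084 and 1707 against 706. Of 9 costimulation genes 6 were above both controls and 1 below both. Cd83, a marker of activated dendritic and B cells, read 1498 and 1297 against 2525. Cd274, which encodes PD-L1, read 630 and 608 against 1109.7. Cd80, a ligand of CD28, lay between the controls (214 and 196 against 205).

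Markers of conventional dendritic cells and B cells, both of which carry class II, were higher on the same array. Those of plasmacytoid dendritic cells were not, with 3 of 13 above both controls, 6 below both and a median of -0.067. Of 25 conventional dendritic cell genes 19 lay above both controls and 2 below both, at a median of 0.57, and 4 were 2-fold higher. The shares over all genes were 41.7% above both, 30.2% below both and 0.565% 2-fold higher. Zbtb46, a transcription factor that marks conventional dendritic cells, read 152 and 148 on the controls against 306 on the knockout array. Batf3, needed for cross-presenting dendritic cells, read 131 and 153 against 356. Itgax, which encodes CD11c, read 280.1 and 311 against 703. Further probes of these 3 lay at 0.26, 0.33 and 0.091. Ckb, a creatine kinase gene, was the highest at 1157 and 1099 against 3069.9. Xcr1, a chemokine receptor of cross-presenting dendritic cells, read 119.7 and 120.1 against 178. Clec9a, their receptor for dead cells, read 255 and 397 against 536. Flt3, the growth factor receptor of the lineage, stayed near background (124 and 118 against 129). Ccr7, which guides cells into the white pulp, was below both controls and read 1937 and 1719 against 1561.

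Of 24 B cell genes 21 lay above both controls and 1 below both, against 41.7% and 30.2% of all genes, at a median of 0.58. The summed intensity of the B cell list was 36339 and 34727 on the controls and 52641 on the knockout array, and that of the dendritic cell list 19920, 19231 and 29400. Cd79b, of the B cell receptor, read 9386 and 9488 against 13760. Fcmr, the receptor for IgM, read 6672 and 6348 against 9934. Ly6d, a surface protein gene of the B lineage, read 904 and 871 against 2351 and was the member 2-fold higher, with its further probe at 1.11. Pax5, the factor that defines B cells, was at the floor on all 3 arrays, and Ms4a1, which encodes CD20, was dim (213 and 229 against 270). Marginal zone B cell genes had a median of 0.59, from 0.34 to 0.78 over the alternatives. The B cell median ranged from 0.27 to 0.62 and the dendritic cell median from 0.31 to 0.64. Dtx1, a Notch target, read 2214 and 2272 against 4653. Asb2, a ubiquitin ligase subunit gene, read 1058 and 1310.4 against 2761. Notch2, the receptor that marginal zone B cells need, was at the floor. The part of these cell types in the class II values was not tested, and in bulk samples a change in the number of cells of a type and one in their RNA per cell cannot be told apart.

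**Figure D4:**
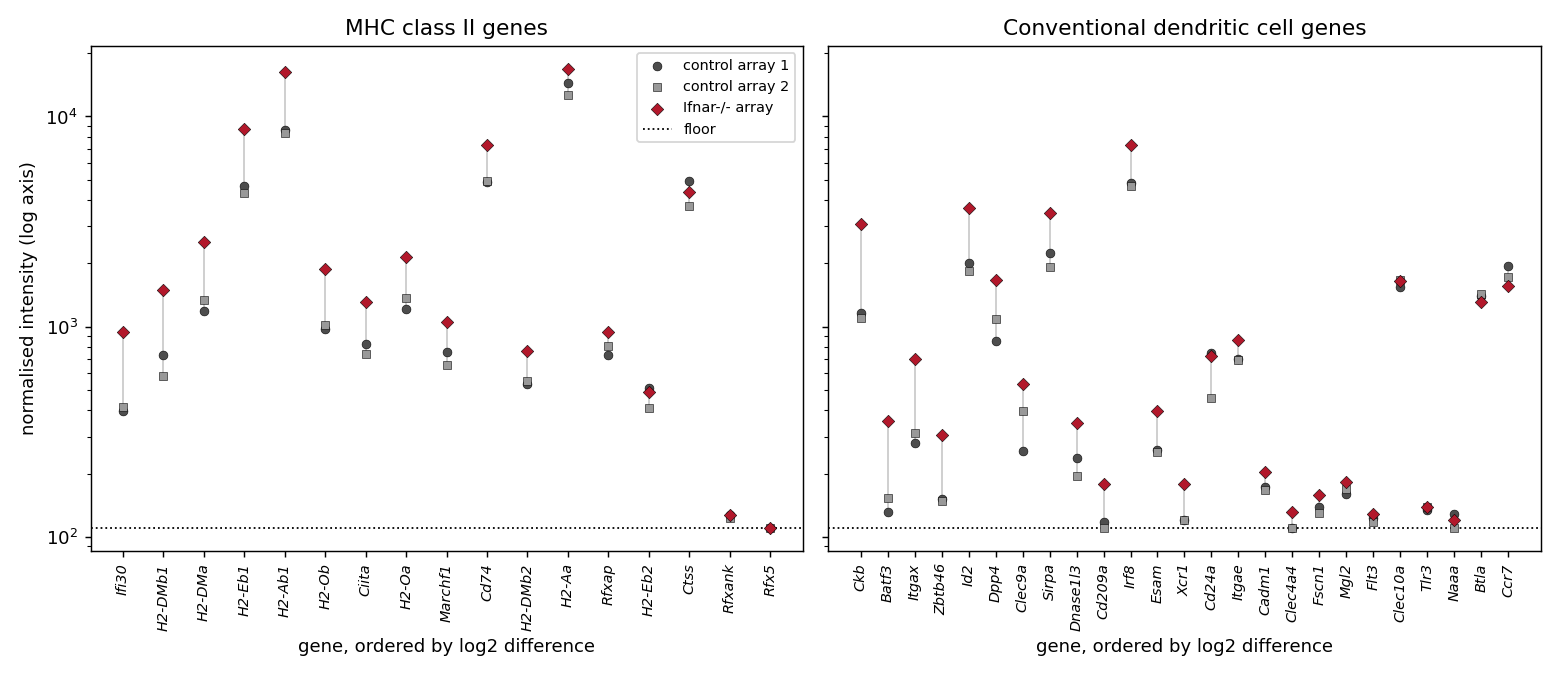
Normalised intensity (log axis) of 17 MHC class II genes (left) and 25 conventional dendritic cell genes (right) on the 2 control arrays and the knockout array, each ordered by log2 difference, with the floor dotted. The knockout array (red) lies above both controls for 14 and 19 of them; levels of different genes are not comparable.

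Genes of DNA replication and of mitosis were lower on the knockout array. Of 44 DNA replication genes 40 lay below both controls and 1 above both, 6 were 2-fold lower, and the median was -0.42. Of 50 mitosis genes 42 lay below both and 4 above both, 5 were 2-fold lower, and the median was -0.60. Over all genes compared 30.2% lay below both controls, 41.7% above both, and 0.939% were 2-fold lower. The controls differed by -0.0084 and 0.021 on the DNA replication and mitosis lists. limma called 20 of 42 and 31 of 41 fitted members lower and 1 and 0 higher. When each gene was the median of its probes above background, the medians were -0.26 and -0.35.

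At the start of replication, the loading factor gene Cdc6 read 855 and 739 on the controls against 318 on the knockout array. Mcm10, which helps to activate the helicase, read 1275 and 1162 against 447. Mcm5, a helicase subunit, read 3811 and 3388 against 1821. Rrm1, the large subunit of ribonucleotide reductase, which supplies deoxynucleotides, read 2557 and 2032 against 888. Rrm2, its small subunit, read 924 and 766 against 299. Clspn, of the replication checkpoint, read 578 and 625 against 253 with further probes at -0.97. Fen1, the flap nuclease, read 1185 and 987 against 483. The knockout array was 2-fold lower on each of these but Mcm5. The clamp gene Pcna was below both controls by less, 1164 and 886 against 746. Pold1, the catalytic subunit of polymerase delta, was the member higher than both controls (1909 and 2071 against 2803).

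Among mitotic genes the kinase gene Plk1 read 1352 and 1158 against 432. Kif22, a chromokinesin gene, read 1819.8 and 1839.7 against 781. Cdca8, of the chromosomal passenger complex, read 1411 and 1392 against 640.3 with a further probe at -0.71. Aurka, a spindle kinase gene, read 665 and 745 against 369.6. These 4 were lower than each control by more than the controls differed. The condensin genes Ncapg and Smc4 lay at -1.65 and -1.28 on their brightest probes and at -0.0085 and -0.26 on further ones. Birc5 and Aurkb, partners of Cdca8, lay closer to the controls (-0.22 and -0.32).

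G1 regulators went both ways. Of 27 compared 9 lay above and 9 below both controls, against 41.7% and 30.2% of all genes. Ccnd1, cyclin D1, read 1308 and 1474 on the controls against 4403 on the knockout array, 3.17-fold higher (1.67 ± 0.18), and its further probes lay between 1.63 and 1.65. Cdkn1a, which encodes a cyclin kinase inhibitor, read 140.1 and 135 against 197. Cdkn1b, another inhibitor, read 412 and 508 against 285. All 3 Ccnd1 probes were higher by about the same size. Markers of dividing blood cell precursors were lower on the same array, the summed intensity of the erythroid list being 48949 and 28473 on the controls and 22031 on the knockout array, and their part in the cell cycle values was not tested.

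Erythroid genes were lower on the knockout array than on both controls, which themselves stood apart. Of 31 erythroid genes 25 lay below both controls and 1 above both, against 30.2% and 41.7% of all genes. Their median was -0.46, and the controls differed by -0.31. The median was -0.81 from control 1 and -0.40 from control 2. Klf1, which specifies red cells, read 1137 and 898 on the controls against 380.2 on the knockout array. Aqp1, a water channel, read 6028 and 4273 against 1212 with further probes at -1.28. Car2, a carbonic anhydrase gene, read 485 and 358 against 153. Tfrc, the transferrin receptor, read 1510.4 and 1023 against 565. The globin gene Hbb-bs, in contrast, lay between the controls, which stood far apart (12346 and 4674 against 6278), and Gata1 stayed near 132 on all 3 arrays.

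Neutrophil granule genes were also mostly lower. Azurophil granule genes, made early in the lineage, had 7 of 8 members below both controls at a median of -0.84. Secondary granule genes had 12 of 15 below both at a median of -0.40, against 30.2% of all genes below both. On these lists the controls differed by -0.39 and -0.55. Over the alternatives the azurophil median ranged from -1.10 to -0.63 and the secondary granule median from -0.65 to -0.10, smallest in size with the floor doubled. The summed intensity of the secondary granule list was 20791 and 11732 on the controls and 12516 on the knockout array, and so lay between the controls. Ltf, which encodes lactoferrin, read 2811 and 1617 against 215 (-3.31) on its brightest probe. Its further probe lay at -0.76 from the nearer control and so missed the 2-fold rule. Camp, which encodes cathelicidin, read 2641 and 1324 against 197 (-3.25). Lcn2, an iron-scavenging lipocalin gene, read 513 and 319 against 119.8. Chil3, a chitinase-like gene, read 988 and 386 against 152 with a further probe at -1.87. The protease gene Ctsg read 8764 and 6632 against 2732. Mpo, myeloperoxidase, read 25201 and 19311 against 12439. S100a9, an alarmin gene, read 10078 and 5648 against 1528. S100a8, its partner, read 3877 and 2510.1 against 782. Control 1 was higher than control 2 on each of these, and the knockout array lay below both.

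Other neutrophil genes were mixed. Of 18 mature neutrophil genes compared, S100a8 and S100a9 among them, 5 lay above both controls and 7 below both. Their median was -0.036, from -0.20 to 0.054 over the alternatives. Il1r2, a decoy receptor for interleukin 1, was 2-fold lower at 1305 and 1053 against 400.2. Csf3r, the growth factor receptor of neutrophils, read 269 and 208 against 207. Cxcr2, their chemokine receptor, read 239 and 219 against 226. Lyz2, lysozyme, lay between the controls (9814 and 5216 against 9203). Retnlg, a resistin-like gene of neutrophils, was the highest gene of the whole comparison by its distance from the nearer control. It read 299.8 and 268 against 1286 (4.54-fold). Mcpt8, a basophil protease gene, was 2-fold lower at 4958 and 5768 against 1717. Prss34, another, was 2-fold lower at 1797 and 3068 against 834. Of the 14 mast cell and basophil genes 8 lay above both controls, among them Gata2 at 1062 and 1636 against 2326, and 3 below both. For this list and the mature neutrophil list the shares over all genes were 41.7% and 30.2%.

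Genes of red pulp macrophages and iron handling had a median of -0.23, while between the controls it was -0.21. It ranged from -0.47 to -0.12 over the alternatives. Slc40a1, the iron exporter ferroportin, read 2914 and 1594 against 562. Blvrb, a biliverdin reductase, read 2881 and 2623 against 1377 with a further probe at -0.99. Vcam1, an adhesion molecule of red pulp macrophages, read 1344 and 486 against 235 on its brightest probe and lay at -0.084 on the further one. Hmox1, haem oxygenase, was dim at 148 and 124 against 119. Spic, the factor that specifies these macrophages, was dim at 168 and 145 against 148.

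T cell genes lay at a median of -0.20, which was 0 with the floor doubled. Of 20 compared 13 lay below both controls, against 30.2% of all genes, and none was 2-fold lower. Bcl11b, a T lineage factor, read 3702 and 4209.6 on the controls against 1897 on the knockout array. Cd3d, of the T cell receptor complex, read 2178 and 2781 against 1247. Cd8b1, a coreceptor chain, read 5024 and 8410.5 against 2892. Il7r, the interleukin 7 receptor, lay above both controls at 2086 and 2275 against 3412, with further probes at -0.21. The summed intensity of the T cell list was 25150 and 31940 on the controls and 21139 on the knockout array. NK and cytotoxic genes had a median of 0.77 and 14 of 19 members above both controls, and the controls differed by 0.50. Ncr1, an NK cell receptor, read 285 and 349.6 against 733. Nkg7, a granule protein gene, read 867 and 1403 against 2678. Prf1, perforin, was below both controls at 12959 and 12678 against 10056. Eomes, an NK cell factor, lay between them at 1395 and 1968 against 1573. The median of the NK list was 1.07 from control 1 and 0.37 from control 2.

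Enzymes of the exocrine pancreas were higher on the knockout array than on both controls. This held for 22 of 23 acinar genes compared, at a median of 1.05, with 6 2-fold higher and none below both controls. The shares over all genes were 41.7% above both, 0.565% 2-fold higher and 30.2% below both. The median was 0.42 with the floor doubled, and 10 of the 23 genes were above background on all 4 arrays. The controls differed by 0.28, and the summed intensity of the list was 6311 and 11759 on the controls and 24156 on the knockout array. Cela2a, an elastase gene, read 337 and 995 against 3178. Amy2a5, pancreatic amylase, read 2513 and 6416 against 12153. Prss2, a trypsinogen gene, read 230.1 and 284 against 973. Pnliprp1, a lipase-related gene, read 299 and 383 against 1447. The order control 1, control 2, knockout held for all 4. These enzymes belong to no cell type of the gate, and where their transcripts came from was not tested.

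Immediate early genes, which many signals induce within minutes, were higher. Of 26 compared 21 lay above both controls and none below both, against 41.7% and 30.2% of all genes. There were 7 members 2-fold higher, against 0.565% of all genes. The median was 0.67 and the controls differed by -0.17. Dusp1, a phosphatase of MAP kinases, read 3047 and 3030.1 on the controls against 8271 on the knockout array. Its relative Dusp2 read 918 and 1115 against 2773 with a further probe at 1.27. Fosb, an AP-1 subunit gene, read 689 and 384 against 1629. Fos, of the same family, read 3484 and 2473 against 6557. Junb, another subunit, was 2-fold higher on its brightest probe (622 and 559.9 against 1823), while its further probe showed no difference. Nr4a1 and Ier2 lay within the control values.

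Of 23 inflammatory cytokine and receptor genes 17 lay above both controls, against 41.7% of all genes. Their median was 0.14 and turned to -0.040 in the lowest of the alternatives. Il6, an acute phase cytokine, read 162 and 216 against 603 (1.69 ± 0.22). Osm, oncostatin M, read 1315 and 1456 against 3396, with its further probe at 0.069. Tnf was dim at 129 and 134 against 167. Il1b, on which the controls stood far apart, read 890.3 and 359.7 against 1042. Of 22 chemokine genes 14 lay above both controls and none below both, against 41.7% and 30.2% of all genes. None of the 22 was 2-fold apart, and the median of the list was 0.035. Cxcl16, a scavenger receptor and chemokine, read 175 and 167 against 341. Ccl9, a chemokine of myeloid cells, read 879 and 1395 against 2554. Xcl1, the ligand of Xcr1, read 948 and 1443 against 2644. Of the interferon-inducible chemokines Cxcl10 was at the floor on all 3 arrays and Cxcl9 read 170.2 and 169 against 269.6. Cxcr4, the receptor that holds cells in marrow and spleen niches, was the chemokine receptor gene 2-fold higher, at 345 and 324 against 917.

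Genes of the lymphotoxin β receptor and NF-κB had 20 of 23 members above both controls and 1 below both. The shares over all genes were 41.7% and 30.2%. The median of the list was 0.35, and none of its members was 2-fold apart. Over the alternatives tried the median ranged from 0.14 to 0.51, lowest in the values as deposited. Tnfaip3, an inhibitor that NF-κB induces, stood highest at 1170.2 and 1477 against 2637. Relb, a subunit of the pathway's noncanonical arm, read 261 and 320 against 558. Nfkb2, its partner, read 399.7 and 327 against 531. Nfkbia, which holds canonical NF-κB in the cytoplasm, read 4209.6 and 4072 against 6455 with its further probe at 1.43. Rela, of the canonical arm, lay at -0.013. The kinase gene Map3k14, which encodes NIK, read 347 and 382 against 523. limma called 7 of 21 higher.

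**Figure D5:**
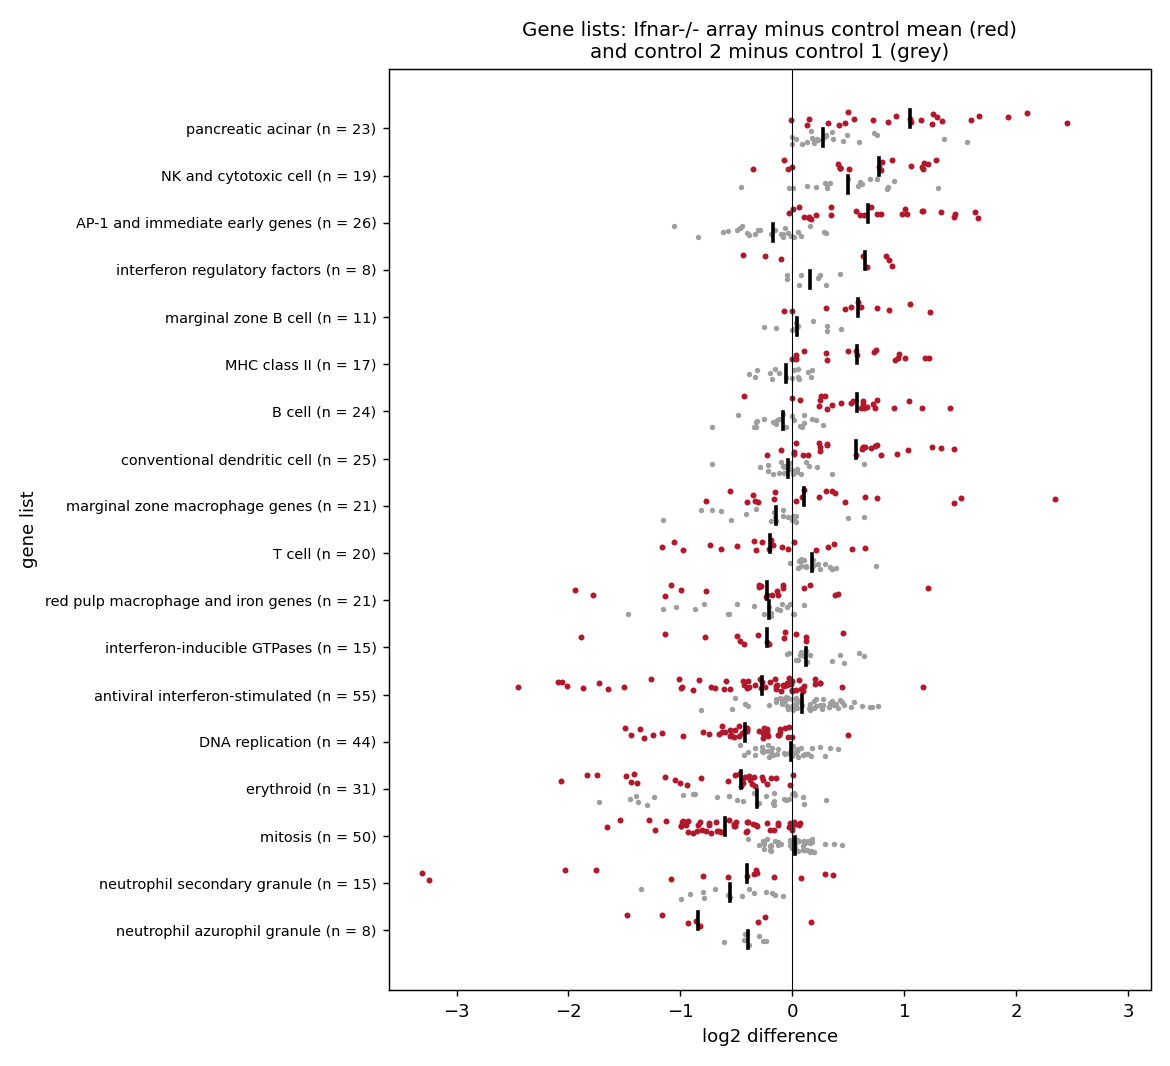
Each red point is a gene's log2 difference, knockout array minus control mean, and each grey point the same gene's difference between the controls, control 2 minus control 1, for 18 lists, with medians as black bars. The medians run from 1.05 (pancreatic acinar) to -0.84 (neutrophil azurophil granule), and the controls stand apart on the neutrophil, erythroid and NK lists but little on the class II, mitosis and DNA replication lists.

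Outside the lists the largest differences were mixed in kind and in how far further probes bore them out. Upp1, uridine phosphorylase, was higher at 178 and 171 against 559, with further probes at 0.69. Cyp4f16, a cytochrome gene, was higher at 248 and 234 against 729, with further probes from -0.016 to 1.57. Nav1, a neuron navigator gene, was higher at 410.3 and 362 against 1122, with further probes from 0.44 to 1.51. Zswim6, a zinc finger gene, was higher at 645 and 683 against 1922, with its further probe at 0.32. Further probes of these 4 thus showed smaller differences or a range of them. Mt1, a metallothionein that binds zinc, was lower at 3340.2 and 2748 against 758. Cap1, an actin-binding protein gene, was lower at 809 and 761 against 157. Rsrc2 was lower at 1713 and 1490.3 against 414. Bex4 was lower at 676 and 589 against 159, with further probes at -0.59. Myh9, the heavy chain of a nonmuscle myosin, read 2395 and 2252 against 324. Rif1, a replication timing factor, read 912 and 734 against 147. Sphk1, a sphingosine kinase, read 1671 and 1555 against 395. Gnas, a G protein subunit gene, read 2459.7 and 2336 against 612. Myh9, Rif1, Sphk1 and Gnas were among the lowest on their brightest probes (-2.84, -2.47, -2.03 and -1.97), but their further probes lay at 0.64, -0.33, 0.045 and 0.15. Of the 83 genes 2-fold higher 39 had further probes, whose median had the same sign in 35 and which were also 2-fold in 12. Of the 138 genes 2-fold lower 88 had further probes, with the same sign in 71 and the 2-fold size in 15.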

How the data were processed

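Per the labels' protocols, RNA of the sorted cells was purified with Trizol, and an Ambion MessageAmp kit gave biotin-labelled cRNA. The arrays are Illumina mouse arrays of 1 colour, and GenomeStudio 2011.1 is the tool named in the submitters' processing notes. The values are linear intensities as deposited by the authors, 1 per probe and array for 45281 probes and 4 arrays. The sources used here give neither their background correction or scaling nor slide positions. Detection p-values were not used here. The small number of arrays limits the precision.

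Probes took their gene from the platform's annotation, in which 34885 probes have 1 symbol, 18 several and 10378 none. Of 19057 symbols 18992 were found in the RefSeq table and 0 had changed. Probes without exactly 1 symbol were left out. Each array's background limit was the 95% point of noise taken from the most frequent intensity and the values below it, mirrored. The limits of the 3 arrays were 113, 115 and 106. Values were quantile normalised over 4 arrays, held at no less than 111, which is the limits' mean, and taken as log2 of the deposited intensities so treated. Each gene was represented by its brightest probe, further probes (held by 5751 genes compared) being given beside it as their median, and kept if above background on at least 1 array, which left 14689 genes. A gene not above background on a group has only a bound there, against the higher of its own value and the lowest signal above background.

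With 1 knockout array there is no replicate check, so genes were called by size: a log2 difference of at least 1, the same way, from each control. limma 3.58.1 (R 4.3.3) was fitted with a mean for each of the 3 groups over 4 arrays, with trend, on 10778 genes above background on all 4, at a Benjamini-Hochberg adjusted p under 0.05. It has 1 residual degree of freedom and assumes that the lone array varies as the controls do. It was tested on simulated data of the 10778 genes in 20 runs. Each run changed 200 genes, divided equally among log2 sizes of 0.5, 1, 2 and 3. The fit recovered 42.2% of those at 0.5, 88.9% at 1 and 100% at 2 and 3, with 10.15 false calls per run on average. The simulation gave each gene the spread typical of its intensity and the knockout array the spread of the controls. It therefore cannot check those assumptions in the real data. Python 3.11.15, numpy 2.4.6, pandas 2.3.3, scipy 1.17.1 and matplotlib 3.10.9 did the rest.

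The comparison, the gene lists and the examples were chosen with earlier results of these data known, so lists are described by counts and medians, with no test of a list. Named genes are those farthest from the nearer control (15 each way over all genes, and up to 4 each way in a list), all genes of the sort gate and of interferon signalling, and members that account for a list, with genes of defining function named also where they did not differ. Alternatives were other scalings, background subtraction, floors, filters, probe choice, 3 arrays only, each control left out and other limma fits.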

Additional observations from a re-analysis of the deposited data

How the results depend on the processing

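In the values as deposited, without scaling, 30 genes were 2-fold higher and 298 lower, and 30 of the 83 and all 138 of the main calls were among them. List medians there were -0.53 for antiviral interferon-stimulated genes, -0.52 for GTPases, 0.26 for MHC class II, 0.27 for B cells, 0.32 for dendritic cells, -0.76 for erythroid genes, -0.72 for DNA replication, -0.87 for mitosis and 0.43 for immediate early genes. With the background subtracted 127 genes were 2-fold higher, and medians were -0.33 for GTPases, 0.64 for dendritic cells, 1.36 for acinar genes and -0.74 for mitosis. With the floor doubled they were -0.071 for interferon-stimulated genes, -0.12 for GTPases, 0.31 for dendritic cells, 0.42 for acinar genes and -0.41 for mitosis. Over genes above background on all 4 arrays the dendritic cell and mitosis medians were 0.63 and -0.73, and with no filter the former was 0.31. As the median of all probes above background, 71 genes were 2-fold lower, Gnas turned to 0.43, and medians were 0.40 for MHC class II, 0.48 for B cells, 0.31 for dendritic cells, -0.26 for DNA replication and -0.35 for mitosis. Leaving out each control in turn gave 113 to 163 genes higher and 164 to 262 lower, an acinar median from 0.83 to 1.19 and an erythroid median from -0.81 to -0.40.

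limma's higher and lower calls were 152 and 1623 as deposited, 0 and 0 at a common 75th percentile (lowest adjusted p 0.105, 2929 genes at an unadjusted p under 0.05), 293 and 14 with the floor doubled, 209 and 203 over all probes, 0 and 0 with floored genes fitted (2872 at an unadjusted p under 0.05) and 222 and 289 without trend. Of 530 list medians under the alternatives 404 moved by less than the control spread and 126 by more. Medians of several lists changed sign, among them MHC class I, the interferon receptor and STAT genes and the unfolded protein response, at -0.22, -0.24 and -0.25 as deposited. Of 299 values of named genes 235 moved by less, 63 by more and 1 reversed. The cause of these shifts was not tested. No paired analysis was possible because no label links a control array to the knockout array. The slide as a block was not run, since no source used here gives slides. Genes near background limit what can be seen: probes above it made up 52.8% to 53.7%.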

Other observations

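Genes outside the comparisons above showed further differences of 2-fold, given here as values on the control arrays against the knockout array. In the unfolded protein response list, 2 of 21 genes were 2-fold lower, at a list median of 0.024 that turned to -0.25 in the values as deposited. Creld2, an endoplasmic reticulum protein gene, read 3412 and 2424 against 714, and its further probe lay at -2.11. Asns, asparagine synthetase, read 1603 and 1628 against 484, and its further probe lay at -1.29. Pdia4, a disulphide isomerase of the same compartment, was higher at 237 and 252 against 457. Hspa5, the main chaperone of that compartment, lay between the controls (1278 and 853 against 998), and Ddit3, a stress factor gene, was above both (206 and 227 against 315). H1f2, a linker histone gene, was the histone gene 2-fold higher, at 1219.5 and 1392 against 4719, with its further probe at 1.64. Of 16 histone genes compared 10 lay above both controls and 5 below both, against 41.7% and 30.2% of all genes. H2ax was among those below (420.4 and 522 against 314).

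Mzb1, a chaperone of immunoglobulin assembly in marginal zone B cells and plasma cells, was 2-fold higher at 1822 and 2065 against 4419, whereas Jchain, of secreted immunoglobulin, lay between the controls at 688 and 502 against 548 and Sdc1, a plasma cell marker, was dim. Fcgr2b, the inhibitory Fc receptor, read 331 and 373 against 791 on its brightest probe, and its further probes ranged from -0.96 to 0.92. Cfp, properdin, which stabilises the alternative complement pathway, was 2-fold higher at 2359 and 2195 against 4786. Apol7c, of the apolipoprotein L family, read 266 and 241 against 933. Among monocyte genes Ly6c1 was 2-fold lower at 998 and 1012 against 408, while Cx3cr1, a chemokine receptor of patrolling monocytes, read 334 and 339 against 622.

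The genes that follow were chosen after their values were seen, because more than 1 of their probes was 2-fold apart from both controls. Ms4a4b, a membrane protein gene of T cells, read 1453 and 1519 against 412. Pik3r1, the regulatory subunit of phosphatidylinositol kinase, read 2776 and 2616 against 777. Dek, a chromatin protein gene, read 5939 and 4649 against 1463. Nasp, a histone chaperone gene, read 876 and 738 against 243. Higher by the same measure were Napsa, an aspartic protease gene, at 1664 and 1872 against 3975, and Rgs1, a regulator of chemokine receptor signalling, at 1425 and 1546 against 3641. The further probe nearest to no difference lay at -0.15 for Ms4a4b, -0.048 for Pik3r1, -0.045 for Dek, -0.24 for Nasp, -0.035 for Napsa and 0.27 for Rgs1.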
